A study of Mus musculus with 239 samples.

Results

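Prolactin drives alveolar development and milk production through its receptor, Prlr, which activates the kinase Jak2 and the transcription factors Stat5a and Stat5b; Cish, Socs1, Socs2 and Socs3 encode inhibitors that cytokine receptor signalling can induce. The rows of these 8 genes, chosen by symbol, were examined among 18850 genes in 239 single mouse mammary cells. All 8 rows were present, and every cell had a value for each.

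The cells came from the mammary glands (the 4th pair) of female FVB mice aged 3 to 4 months, with no transgene or drug named in the labels. The mice were virgin or pregnant; the labels give day 12 and the protocol day 12.5. After depletion of haematopoietic and endothelial cells, viable cells were gated as basal by middling CD24 with high CD29, or as luminal by high CD24 with low CD29. They were captured singly on Fluidigm C1 chips, inspected by microscope for doublets, and amplified with the SMARTer kit. The groups were 34 virgin basal, 54 virgin luminal and 49 pregnant luminal cells, and the rest of the 239 were pregnant basal. No label names the mouse, chip or day of a cell, so each group was treated as 1 sample: spreads (SD) and intervals describe cells, no test between groups was made, and chip or animal and group cannot be told apart.

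In this tissue, luminal cells that carry the oestrogen receptor sense hormones and signal to their neighbours, whereas alveolar luminal cells make milk protein in pregnancy and lactation. Prolactin-activated STAT5 binds the promoters of milk protein genes, and Elf5, a luminal transcription factor, is needed for alveolar differentiation. Basal cells are mostly contractile myoepithelial cells.

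Sequencing depth, recovered from the smallest steps of the values, had medians of 6.18, 8.54, 9.12 and 8.85 M (mega) fragments per cell in virgin basal, virgin luminal, pregnant basal and pregnant luminal cells, with a range of 1.15 to 39.9 M over all cells. Expression is in FPKM, fragments scaled by transcript length and by the cell's mapped fragments, and a gene at 1 FPKM or more is called detected. The median of detected genes per cell was 1825, 3773, 2734.5 and 3653 in the same order, so virgin basal cells had the fewest detected genes. The gates matched their markers in most cells, least so in virgin basal cells. At least 3 of 6 luminal markers (such as Krt8 and Epcam) reached 10 FPKM in 54 of 54 virgin and 47 of 49 pregnant luminal cells. At least 3 of 6 contractile markers (such as Acta2 and Myh11) did so in 25 of 34 virgin and 99 pregnant basal cells (all but 3). At least 3 of 5 basal markers did so in 18 of 34 virgin and 92 pregnant basal cells. Of these 5, Krt14 and Krt17 were each detected in 28 of 34 virgin basal cells, Krt5 in 19, Col17a1 in 16 and Trp63 in 10. Some cells went against their gate: 5 pregnant luminal cells held 3 or more contractile markers at 10 FPKM, 5 virgin and 24 pregnant basal cells held 3 or more luminal markers, and 6 virgin and 4 pregnant basal cells held 3 or more of 7 endothelial markers. All 7 endothelial markers were undetected in virgin luminal cells; of the 5 immune markers, Cd3e and Cd79a were undetected in every group, Ptprc was detected in 1 pregnant luminal cell and Lyz2 in 5 virgin luminal cells, while Cd74 was detected in 2 virgin basal, 13 virgin luminal, 23 pregnant basal and 7 pregnant luminal cells.

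Prlr, on chromosome 15 (10177238 to 10349180, plus strand, GRCm38, GENCODE vM21), encodes the prolactin receptor and was the member that separated the gates most in virgin glands; in pregnancy Socs3 and Stat5a differed by more. In virgin luminal cells its level ran from 0.0434 FPKM through a median of 67.7 to 386 FPKM, and 24 of 54 cells were at 100 FPKM or more. Pregnant luminal cells ran from 0.0085 through a median of 3.11 to 40.2 FPKM, with none at 100 FPKM. Thus 31 of 54 virgin luminal cells lay above the highest pregnant luminal cell, and 0 of 49 pregnant luminal cells lay above the virgin luminal median, although the groups overlapped below 40.2 FPKM.

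Basal cells held almost no Prlr. Virgin basal cells had a median of 0.159 FPKM and a highest value of 3.26 FPKM, the single cell of 34 at 1 FPKM or more (2.94%, exact 95% binomial interval 0.0744 to 15.3%). Pregnant basal cells had a median of 0.109 and a highest value of 0.765 FPKM, so 0 cells reached 1 FPKM; the upper limit on the share is then 2.94%. Detection was 51 of 54 virgin luminal cells (94.4%, 84.6 to 98.8%) and 34 of 49 pregnant luminal cells (69.4%, 54.6 to 81.7%); these intervals cover counting error only. Values under 1 FPKM were not all at 0: 95 pregnant basal cells had a Prlr value above 0 and 7 were at 0, and the group's median was about 11 fragments against about 7273 in virgin luminal cells. In the annotation the 3' part of Prlr overlaps a gene on the same strand, Gm21973, and fragments there cannot be assigned to one of them.

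**Figure D1:**
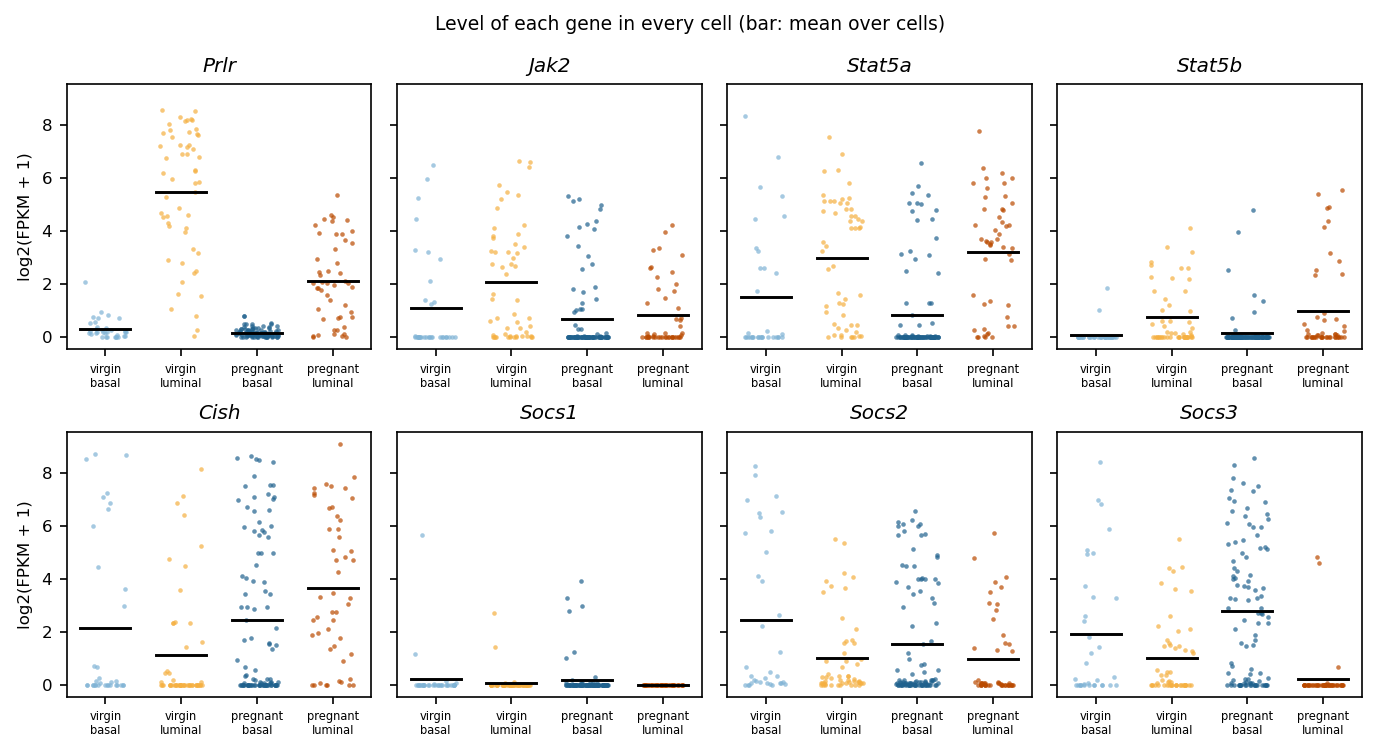
Level of each of the 8 genes in every cell on a log2(FPKM + 1) scale (y axis) by group (x axis); each point is 1 cell and each black bar is the mean over the cells of the group. Prlr is near 0 in both basal groups and spans the whole range in virgin luminal cells, while Cish, Socs2 and Socs3 are at or near 0 in many cells and high in others.

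Jak2, the kinase bound to the receptor, lies on chromosome 19 (29251828 to 29313080, plus strand) and was sparse. Its median was 0 FPKM in both basal groups, 1.70 in virgin luminal cells and 0.0246 in the pregnant luminal group, with highest values of 89, 39.6, 99.2 and 17.8 FPKM in virgin basal, pregnant basal, virgin luminal and pregnant luminal cells. It was detected in 11 of 34 virgin basal (32.4%), 28 of 54 virgin luminal (51.9%), 22 pregnant basal (21.6%) and 15 of 49 pregnant luminal cells (30.6%). The 9 virgin luminal cells with most Jak2 exceeded every pregnant luminal cell, but the remaining cells of both groups overlapped.

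Stat5a and Stat5b encode the closely related transcription factors that Jak2 phosphorylates, and their genes are neighbours on chromosome 11, Stat5a at 100859351 to 100885169 on the plus strand and Stat5b at 100780731 to 100850724 on the minus strand, 8626 bases apart. Stat5a had nearly the same median in virgin (10.6 FPKM, range 0 to 190) and pregnant luminal cells (11.1 FPKM, range 0 to 219). It was detected in 37 of 54 (68.5%, 54.4 to 80.5%) and 37 of 49 cells (75.5%, 61.1 to 86.7%), intervals that overlap. In basal cells the median was 0 FPKM in both states, with 12 virgin (35.3%) and 21 pregnant cells (20.6%) at 1 FPKM or more. A single virgin basal cell at 330 FPKM made up 54% of the Stat5a summed over that group; the group's mean was 18 FPKM with it and 8.51 FPKM without it.

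Stat5b was the scarcer paralogue in every group. It was detected in 2 of 34 virgin basal, 16 of 54 virgin luminal, 5 pregnant basal and 11 of 49 pregnant luminal cells, and its highest values were 2.65, 16.4, 26.7 and 46.5 FPKM. Stat5a made up 99.4%, 93.4%, 90.3% and 83.8% of the summed FPKM of the pair in those groups in that order. Fragments that match both paralogues could have been split between them by the authors' quantification, and the last 72 bases of Stat5a overlap Stat3 on the other strand.

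Cish, the inhibitor best known as a STAT5 target, lies on chromosome 9 (107296026 to 107302784, plus strand) and varied widely from cell to cell. In pregnant luminal cells it ran from 0 through a median of 8.60 to 543 FPKM, and 38 of 49 cells were at 1 FPKM or more (77.6%, 63.4 to 88.2%). In virgin luminal cells the median was 0, the highest value 277 FPKM, and 14 of 54 cells were detected (25.9%, 15 to 39.7%). The detection intervals of these groups do not overlap, and 43 of 49 pregnant luminal cells lay above the virgin luminal median. In basal cells, 11 of 34 virgin (32.4%, 17.4 to 50.5%) and 48 pregnant cells (47.1%, 37.1 to 57.2%) held it, at medians of 0.0611 and 0.374 FPKM and highest values of 414 and 399 FPKM. Cish overlaps 2 annotated genes on the other strand, Gm17040 and Gm17041; the kit does not mark strand, so their reads cannot be told from those of Cish.

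The sequence near the start of Cish is shown because STAT5 dimers bind sites of the form TTCNNNGAA (the same letters on both strands). This motif was searched in windows from 250 bases before to 50 after each RefSeq start (GRCm38.p6). It occurred in 2726 of 32851 windows (8.30%), and 2 or more copies in 150 (0.457%). Entries were matched for 7 of the 8 genes, with 11 windows, of which 3 held the motif: 2 copies for Cish and 1 each for Socs3 and for the second of 3 Prlr starts. The lines below give 30 bases around each, 5′ to 3′ on the gene's strand, with the motifs in capitals.
Cish, chr9:107296654-107296683, plus strand, within exon and UTR: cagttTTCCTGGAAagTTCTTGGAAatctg
Socs3, chr11:117969502-117969531, minus strand, within an intron of the annotated gene: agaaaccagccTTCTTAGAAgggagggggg
Prlr, chr15:10223785-10223814, plus strand, within an intron of the annotated gene: ggcaaaatgagTTCTAGGAAtaagggatat
The first Cish copy begins at the RefSeq start and the second 11 bases after it. The Socs3 copy begins 154 bases before its start and the Prlr copy 110 bases before. A match describes letters, and binding was not measured in these cells.

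Socs2, an inhibitor of growth hormone signalling, lies on chromosome 10 (95385362 to 95417180, minus strand). Its highest values were 300 FPKM for virgin basal, 93.1 for pregnant basal, 51.4 for pregnant luminal and 44.2 for virgin luminal cells, and 9 of 34 virgin basal cells exceeded every virgin luminal cell. Medians were low in all groups, at 0.334, 0.0774, 0.0353 and 0.172 FPKM in the same order. Detection was 15 of 34 (44.1%), 35 (34.3%), 16 of 49 (32.7%) and 15 of 54 cells (27.8%), with overlapping intervals. The mean was 36.5 FPKM in virgin basal and 3.51 FPKM in virgin luminal cells, so the virgin basal mean rested on a minority of cells at high level. Among the 6 virgin basal cells with endothelial markers, 3 held Socs2, up to 241 FPKM, and 12 of the other 28 cells held it, up to 300 FPKM.

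Socs3, an inhibitor induced by interleukin-6 family cytokines that signal through gp130 (Il6st) and Stat3, lies on chromosome 11 (117966079 to 117970047, minus strand). Pregnant basal cells ran from 0 through a median of 5.11 to 374 FPKM, with 61 cells detected (59.8%, 49.6 to 69.4%). Of the pregnant luminal cells 2 of 49 were detected (4.08%, 0.498 to 14%), at 27.4 and 23.1 FPKM, and 45 of 49 were at 0. The higher of these was 1 of the 5 pregnant luminal cells with contractile markers; among the other 44 cells, 1 was detected. Virgin basal cells had 15 of 34 detected (44.1%, 27.2 to 62.1%) with a median of 0.189 and a highest value of 333 FPKM, and virgin luminal cells had 20 of 54 (37.0%, 24.3 to 51.3%) with a median of 0.0824 and a highest value of 44 FPKM. Between the luminal groups the detection intervals did not overlap.

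Socs1, an inhibitor that binds Jak2 directly, lies on chromosome 16 (10782240 to 10785536, minus strand) and was detected in 2 of 34 virgin basal, 2 of 54 virgin luminal, 6 pregnant basal and 0 of 49 pregnant luminal cells. All 49 pregnant luminal values were 0, which allows a detected share of up to 6.12%. The highest value was 48.5 FPKM in a virgin basal cell that made up 97.3% of its group's sum.

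**Figure D2:**
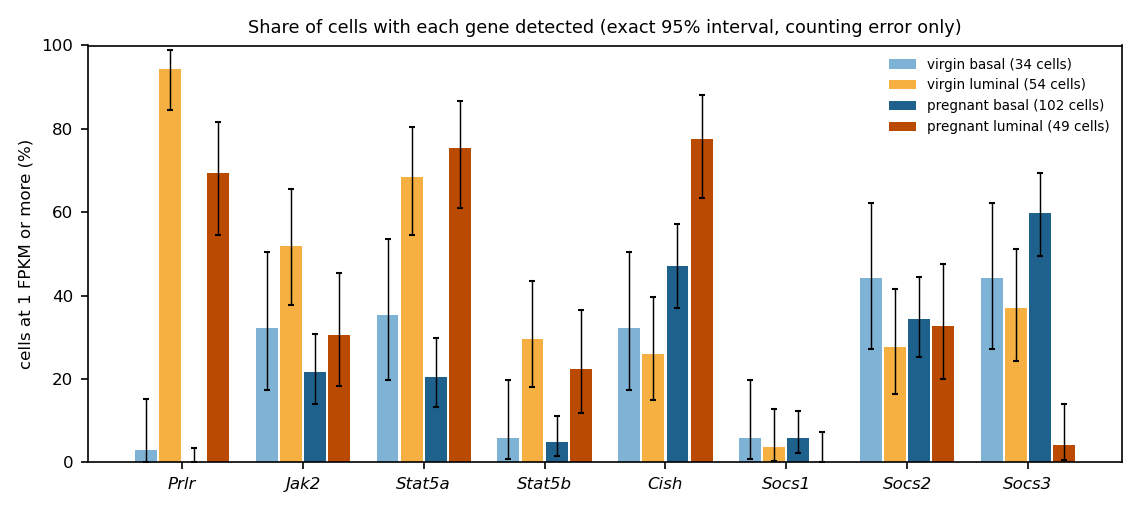
Share of cells at 1 FPKM or more (y axis, percent) for each gene (x axis) in the 4 groups; error bars are exact 95% binomial intervals, which cover counting error only. Prlr detection is 94.4% in virgin luminal and 0% in pregnant basal cells, and in pregnant luminal cells Cish is at 77.6% and Socs3 at 4.08%.

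Detection at a fixed FPKM can move with depth. Thinning kept the cutoff at 1 FPKM, which is 5 to 27 fragments at 2 M, depending on the gene. Mainly values near 1 FPKM could then change class, so the shares were largely held by this design. When each cell was thinned to 2 M fragments, leaving out 2 shallower cells, every one of the 32 shares (8 genes in 4 groups) stayed inside its original interval: Prlr was at 94% and 69.7% in virgin and pregnant luminal cells, Cish at 26.2% and 76.8%, and Socs3 at 59.6% and 4.17% in pregnant basal and luminal cells.

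Differences between groups were taken as the group means of log2(FPKM + 1), subtracted, a scale that understates the change of low genes. A gene was called at a difference of 1 or more, among genes detected in 10% or more of the pooled cells of both groups. The 4 comparisons share groups, so their values are not independent. Across all tested genes the shares called differed widely by comparison and direction, which is the background for each count.

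Between the gates in virgin glands, 2.91% of 7961 genes were higher and 35% were lower in basal cells, with a median difference of -0.68 (232 and 2785 genes; 1200 and 2826 by the log2 ratio of mean FPKM, a measure that leans on cells at high level). Of the 7 members tested, 2 were higher and 2 were lower. Prlr was lower by 5.15 (mean 0.33 ± 0.41 against 5.48 ± 2.44, SD over 34 and 54 cells), the 29th lowest of all tested genes. Stat5a was lower in basal cells, with a difference of -1.46 (1.52 ± 2.36 against 2.98 ± 2.29). By the log2 ratio of mean FPKM it was -0.22, a measure in which the single cell at 330 FPKM makes up 54% of the virgin basal sum. Socs2 (1.43) and Cish (1.01) were higher in basal cells, against a background that leans the other way. Socs2 was at 0.87 among cells with 2000 or more genes, which keep 12 of 34 virgin basal cells, and Cish at 1.86 in the same cells. Cish was under 1 without cells holding markers of the other gate (0.85), without the highest cell of each group (0.95), against virgin luminal cells without Esr1 (0.80) and with a pseudocount of 10 (0.64).

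Between the gates in pregnancy, 7.1% of 7676 genes were higher and 21.7% were lower in basal cells, with a median of -0.37 (545 and 1669 genes; 1444 and 1213 by the ratio of mean FPKM). Of the 7 members tested, 1 was higher and 3 were lower. Socs3 was higher by 2.59 in basal cells (2.80 ± 2.66 against 0.21 ± 0.94). Stat5a (-2.41) and Prlr (-1.95) were lower. Cish was lower, at -1.20 (2.46 ± 2.96 against 3.66 ± 2.77), which is the opposite direction to the virgin glands; in cells with 2000 or more genes its difference was -0.99, and by the ratio of mean FPKM it was -0.37. Leaving out cells with markers of the other gate gave -1.71 for Cish and 2.28 for Socs3: in pregnant basal cells both genes were found more often in the 24 cells with luminal markers (Cish in 17 and Socs3 in 21) than in the other 78 cells (31 and 40), and the part of these cells in the gate difference was not tested further.

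Between pregnant and virgin luminal cells, 6.01% of 8319 genes were higher and 6.26% were lower in pregnancy (500 and 521 genes), with a median of -0.02. After scaling every cell to the same total the split was 555 and 1240. The 10 most abundant genes held a median of 27.9% of the total in pregnant luminal cells, against 11.1% in the virgin group. Of the 7 members tested, 1 was higher and 2 were lower. Prlr was lower by 3.34 (2.13 ± 1.55 against 5.48 ± 2.44), the 32nd lowest of all tested genes, and Cish was higher by 2.53 (3.66 ± 2.77 against 1.12 ± 2.16), the 55th highest. Jak2 was lower, at -1.24. Stat5a (0.26), Stat5b (0.23), Socs2 (-0.05) and Socs3 (-0.80) were under the threshold. Thus the receptor was lower and the inhibitor Cish higher in the pregnant luminal cells, while Stat5a was at a like level in both.

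Between pregnant and virgin basal cells, 18.5% of 6692 genes were higher and 0.643% were lower in pregnancy, with a median of 0.37 (1238 and 43 genes; 1929 and 763 by the ratio of mean FPKM), and virgin basal cells had the fewest detected genes. None of the 5 members tested was called. The nearest to the threshold were Socs3 (0.90) and Socs2 (-0.89), the latter the 60th lowest of all tested genes. Both passed 1 after scaling every cell to the same total (1.14 and -1.14). Without cells holding markers of the other gate they were at 0.30 and -1.23. Among cells with 2000 or more genes Socs3 was at 1.03 and Socs2 at -0.35.

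**Figure D3:**
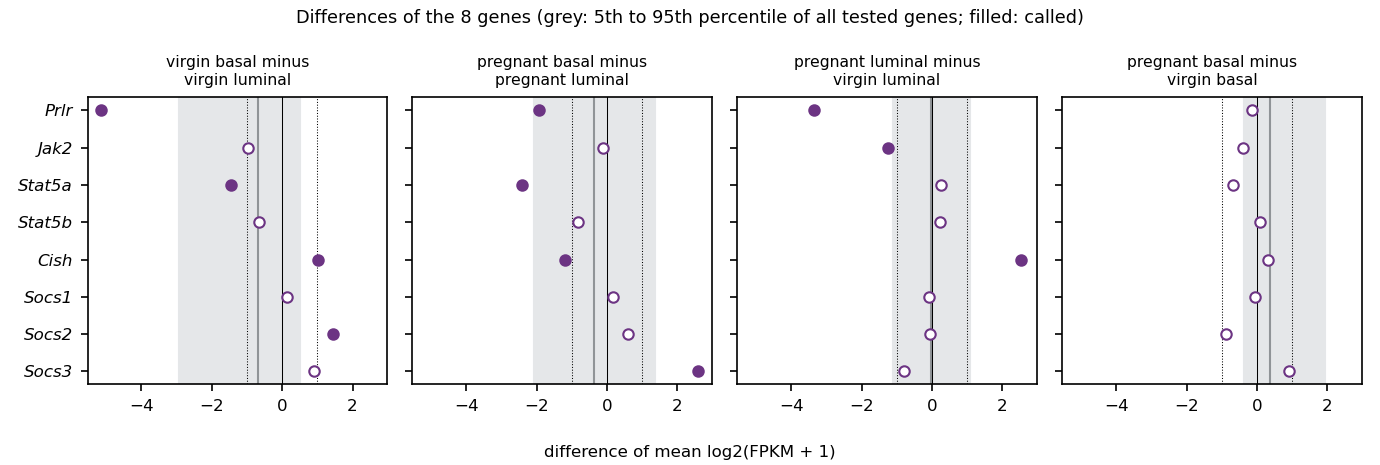
Difference of mean log2(FPKM + 1) (x axis) for each gene (y axis) in the 4 comparisons; filled points were called, open points were not, the grey band spans the 5th to 95th percentile of all tested genes, the grey line is their median and dotted lines mark the threshold of 1. Between pregnant and virgin luminal cells, Prlr (-3.34), Jak2 (-1.24) and Cish (2.53) lie outside the band.

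Virgin luminal cells were not uniform in the receptor. Of 54 cells, 33 held Esr1, the oestrogen receptor, at 1 FPKM or more and 21 did not. Prlr ran from 22.5 through 146 to 386 FPKM in the Esr1 cells and from 0.0434 through 6.57 to 232 FPKM in the others, so no Esr1 cell was under 22.5 FPKM but the ranges overlapped. The milk gene Csn2, β-casein, went the other way, with medians of 260 and 2424 FPKM, and Elf5 was detected in 4 of 33 and 10 of 21 cells. Stat5a was detected in 30 of 33 Esr1 cells (90.9%, 75.7 to 98.1%) and 7 of 21 others (33.3%, 14.6 to 57.0%), and Jak2 in 21 of 33 and 7 of 21. Cish (9 of 33 and 5 of 21) and Socs3 (11 of 33 and 9 of 21) had like shares, and Socs2 was in 6 of 33 and 9 of 21.

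In the pregnant luminal cells, 3 of 6 markers of hormone-sensing luminal cells (Esr1, Cited1 and Foxa1) were detected in 0 of 49 cells. Pgr and Areg were detected in 1 cell each and Ly6a in 10. The summed level of the 6 markers had a median of 0.0180 FPKM (range 0 to 473) in pregnant and 603 FPKM (0.103 to 5398) in virgin luminal cells. Fewer hormone-sensing cells in the gate and lower expression of these genes per cell cannot be told apart in these data. Against the 21 virgin luminal cells without Esr1 alone, the pregnant luminal cells had a Prlr difference of -1.03 (-3.34 against all virgin luminal cells), a Jak2 difference of -0.31 (-1.24), a Stat5a difference of 1.5 (0.26) and a Cish difference of 2.32 (2.53). So the Prlr and Jak2 differences were smaller against these cells, Cish was nearly as large, and Stat5a passed the threshold as higher in pregnancy. Against the same cells 638 of 8248 genes were higher and 295 lower in pregnancy, with a median of 0.13.

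**Figure D4:**
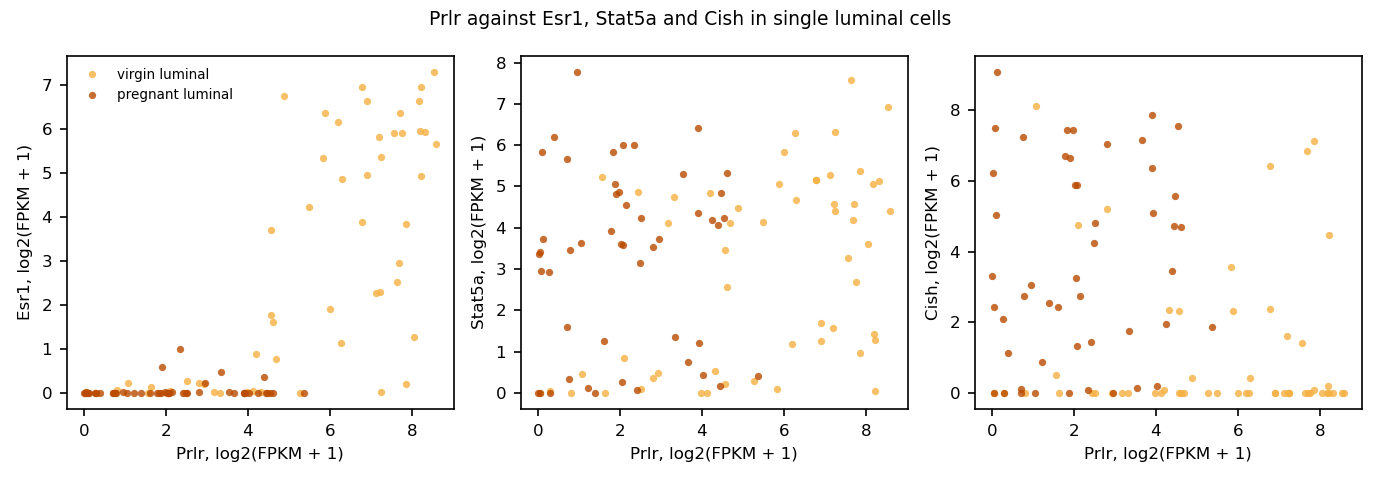
Esr1, Stat5a and Cish (y axes) against Prlr (x axes) in single luminal cells, all as log2(FPKM + 1); each point is 1 cell, in 54 virgin and 49 pregnant cells. The 33 cells with Esr1 at 1 FPKM or more are virgin cells with Prlr at 22.5 FPKM or more, while Cish shows no order with Prlr (Spearman correlation -0.01 in virgin and 0.12 in pregnant cells).

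Within virgin luminal cells the Spearman correlation of Prlr was 0.71 with Esr1, 0.44 with Stat5a, 0.20 with Jak2, -0.50 with Elf5 and -0.01 with Cish (n = 54 cells). These are descriptions of cells from 1 sample, and Prlr correlated at 0.18 with the number of detected genes in the same cells. With the mean of the 6 hormone-sensing markers Prlr correlated at 0.72, and with the mean of 10 milk protein genes at -0.53. In pregnant luminal cells (n = 49) Prlr correlated at 0.36 with the hormone-sensing markers, 0.32 with the milk protein genes and 0.12 with Cish. All of these are too weak in such sparse data to count as a finding. The genes whose level was most like Prlr within virgin luminal cells were Ptn (Pearson r = 0.90), Tmem56 (0.83), Cited1 (0.81), Tspan13 (0.79) and Wfdc2 (0.79), among 8335 genes. Over all 239 cells they were Cited1 (0.82), Col8a1, Tmem56 (both 0.80), Tspan1 and Gipc2 (both 0.79), which include the difference between groups. No gene reached such values for Stat5a (highest Tmprss13, 0.44, then Krt19), Socs3 (Vim and Rnase4, 0.49), Cish (Atf3, 0.31) or Socs2 (Zfp608, 0.27) over all cells.

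Receptor, kinase and either STAT5 gene were detected together in 23 of 54 virgin luminal and 10 of 49 pregnant luminal cells, close to the 20.1 and 8.5 cells that the separate shares would give. No basal cell held all 3. That was nearly fixed in advance, as Prlr reached 1 FPKM in 1 of 34 virgin and 0 pregnant basal cells. Cish was also detected without Prlr at 1 FPKM, in 11 of the 38 pregnant luminal cells with Cish. The same held in all 48 pregnant basal cells with Cish and in 10 of 11 such virgin basal cells. All 49 pregnant luminal cells had a Prlr value above 0. In the median cell 1 FPKM was about 118 fragments for Prlr and 19 for Cish. These counts therefore do not show what Cish requires. Cish was found with neither STAT5 gene detected in 34 of 48 pregnant basal cells and 6 of 38 pregnant luminal cells. In the pregnant luminal group Prlr and Cish were detected together in 27 cells, against 26.4 from the product of their shares. A transcript below detection can still be present, so these counts bound only what was detected.

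At least 1 of the 4 inhibitor genes was detected in 28 of 34 virgin basal, 35 of 54 virgin luminal, 82 pregnant basal and 40 of 49 pregnant luminal cells. In the pregnant basal group 52 cells held 2 or more and 20 held none. Cish and Socs3 were detected together there in 35 cells against 28.7 from the product of their shares, and Cish and Socs2 in 16 against 16.5. In these cells Cish correlated at 0.35 and Socs3 at 0.33 with the number of detected genes, and Socs2 at -0.06. The part of gene number in the joint detection was not tested. The number of members detected per cell had a median of 4 in virgin luminal, 3 in pregnant luminal and 2 in both basal groups.

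Milk protein genes are classical STAT5 targets. All 9 tested were higher in pregnant than virgin luminal cells (9 of 9 against 6.01% of all genes, list median 3.89 against -0.02), led by Glycam1 (9.72), Csn1s2a (5.80), Csn2 (4.96) and Wap (4.52). All 9 were lower in basal than luminal cells in pregnancy (21.7% of all genes, list median -9.46 against -0.37). In virgin glands 7 of 9 were lower (35% of all genes, list median -3.64 against -0.68). None was called in the other direction. Between the basal groups 2 of 6 (18.5% of all genes), Csn3 (1.55) and Csn1s2a (1.35), were higher in pregnancy. The pregnant luminal cells thus held more milk protein RNA and less Prlr. Within them Cish correlated with Csn2 at -0.05 (n = 49).

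STAT5 partners and coregulators act with or beside the STAT5 proteins at target genes. In pregnant against virgin luminal cells 4 of 11 tested were higher, where 6.01% of all genes were, and none lower: Elf5 (2.93), Tfap2c (2.19), Cebpb (1.41) and the glucocorticoid receptor gene Nr3c1 (1.14). Elf5 was detected in 40 of 49 pregnant and 14 of 54 virgin luminal cells and in no basal cell. Between basal groups 4 of 10 were higher in pregnancy, where 18.5% of all genes were, Tfap2c (2.44), Nfib (2.33), Gata3 (1.63) and Nfia (1.06). In virgin basal against luminal cells 6 of 11 were lower, where 35% of all genes were, led by the luminal factor Gata3 (-3.53), and Cebpb was higher (1.93); in pregnancy 2 of 11, Elf5 (-4.11) and Gata3 (-1.63), were lower (21.7% of all genes) and Nfia (1.31) higher.

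Among growth and survival genes, Myc (3.13) and Ccnd1, cyclin D1 (1.20), were higher and Areg, amphiregulin (-4.84), and Wnt4 (-1.17) lower in pregnant than virgin luminal cells. These were 2 and 2 of 8 tested, where 6.01% of all genes were higher and 6.26% lower. Areg was detected in 42 of 54 virgin and 1 of 49 pregnant luminal cells, and Tnfsf11, which encodes RANKL, in 7 and 1. In basal cells 3 of 7 were higher in pregnancy (18.5% of all genes), Ccnd1 (3.69), Myc (1.14) and Bcl2l1 (1.07). Basal cells were lower than luminal cells for 4 of 8 in virgin glands (35% of all genes), Areg (-4.93), Ccnd1 (-3.39), Bcl2l1 (-3.33) and Wnt4 (-1.32), and for 3 of 7 in pregnancy (21.7% of all genes), Bcl2l1 (-2.52), Mcl1 (-1.51) and Myc (-1.05).

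The ligands were nearly absent from these cells. Prl, Prl3d1 and Gh were detected in no cell of any group and Prl3b1 in 1 pregnant basal cell. Of 3 related receptors tested, the growth hormone receptor Ghr was under the threshold in all 4 comparisons (detected in 5, 8, 20 and 14 cells of the virgin basal, virgin luminal, pregnant basal and pregnant luminal groups), as was Il4ra. Il13ra1, an interleukin-13 receptor chain, was lower in pregnant than virgin luminal cells (-3.33), lower in basal cells of virgin glands (-2.17) and higher in basal cells in pregnancy (1.52).

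The remaining JAK and STAT genes were mostly under the threshold. Of 5 tested, Stat6 (-1.55) and Stat3 (-1.34) were lower in virgin basal than virgin luminal cells, where 35% of all genes were lower. The list median there was -0.65, near the -0.68 of all genes. None was called in the other 3 comparisons. In these 7.1% and 21.7%, 6.01% and 6.26%, and 18.5% and 0.643% of all genes were called higher and lower. Stat3 was detected in 81 pregnant basal and 43 of 49 pregnant luminal cells, and Jak1 in 79 and 38, so both were more widely detected than the members Jak2 and Stat5a in basal cells.

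Receptors of the gp130 family act upstream of Stat3 and Socs3. The oncostatin M receptor Osmr was higher in basal cells in both states (1.87 and 4.75) and lower in pregnant than virgin luminal cells (-2.27), where it was detected in 5 of 49 and 35 of 54 cells. The LIF receptor Lifr was higher in pregnant basal than pregnant luminal cells (3.66), lower in pregnant than virgin luminal cells (-2.21) and higher in pregnant than virgin basal cells (1.04). These were the only calls in that list, 1 of 6, 2 of 6, 2 of 7 and 1 of 7 tested genes. In the directions called, 2.91%, 7.1%, 6.26% and 18.5% of all genes were called in the same order. The 1 of 7 between basal groups is thus not above the share of all genes. The shared chain Il6st was under 1 in each comparison, and the ligand Osm was detected in no cell.

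Negative regulators other than the members were called in few cases. Ptpn1, a phosphatase that acts on Jak2, was lower in pregnancy in both luminal (-2.52) and basal cells (-1.23). Cav1, caveolin-1, an inhibitor of Jak2 in mammary cells that also marks myoepithelial and endothelial cells, was higher in basal cells in virgin (2.68) and pregnant glands (6.96), higher in pregnant than virgin basal cells (2.92), and lower in pregnant than virgin luminal cells (-1.37). Pias1 was lower in basal cells in both states (-1.57 and -1.92) and Ptpn1 (-1.28) and Ptpn2 (-1.32) in virgin glands. In all, 1 of 10, 1 of 7, 0 of 11 and 1 of 8 tested genes of this list were higher, and 3, 1, 2 and 1 lower, in the order of the comparisons above, where 2.91%, 7.1%, 6.01% and 18.5% of all genes were higher and 35%, 21.7%, 6.26% and 0.643% lower. Socs4, Socs5, Socs6 and Socs7 were not called in any comparison.

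Immediate early genes, which respond within minutes to stimuli including handling of tissue, were examined because Socs3 and Cish are also quickly induced. Of 12 tested, 7 were higher in pregnant than virgin basal cells (18.5% of all genes) and none lower, among them Atf3 (3.30) and Klf6 (1.85). In pregnant against virgin luminal cells 5 were higher (6.01% of all genes), led by Egr1 (2.56) and Nr4a1 (2.53), and Fos was lower (-1.93). Basal against luminal cells had 1 higher and 4 lower in virgin glands, where 2.91% and 35% of all genes were, and 2 higher (Dusp1 2.12, Fos 1.04) and 3 lower in pregnancy, where 7.1% and 21.7% of all genes were; the shares lower are near those of all genes. Socs3 correlated with the mean of the 12 genes at 0.57 in pregnant basal and 0.33 in virgin basal cells (n = 34 for the latter), and at 0.33 with the number of detected genes in pregnant basal cells. In pregnant luminal cells the mean of these genes was 5.25 ± 1.04, like the 5.22 ± 1.67 of pregnant basal cells, while Socs3 was detected in 2 of 49; the part of handling in any of these levels was not tested.

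**Figure D5:**
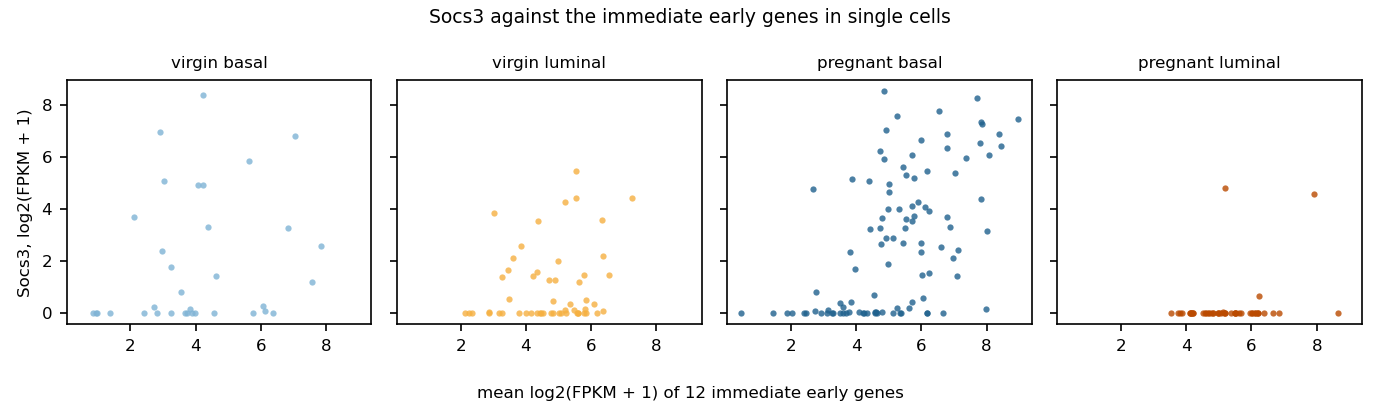
Socs3 as log2(FPKM + 1) (y axis) against the mean log2(FPKM + 1) of 12 immediate early genes (x axis) in single cells of the 4 groups, 1 point per cell. Socs3 is spread up to 374 FPKM in pregnant basal cells, with a Spearman correlation of 0.57, and lies at 0 in 45 of 49 pregnant luminal cells; the mean of the early genes runs from 3.52 to 8.64 in those cells and from 0.467 to 8.96 in pregnant basal cells.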

How the data were processed

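RNA-seq of 239 single cells was analysed (34 virgin basal, 54 virgin luminal, 102 pregnant basal and 49 pregnant luminal). The authors deposited 1 table of FPKM values for 18850 genes; no header names the unit, which was read from the tools used and from how the values behave. The submitters' processing notes name mm10 (GRCm38) with the tools TopHat2 2.0.13, Cufflinks 2.2.1 and Trimmomatic 0.35. Values were used as deposited. Each cell's relative depth was recovered from the smallest steps of low values: 99.96% of 467264 values of 11018 genes were whole within 0.05 of a fragment (94.2% for Prlr, so its fragment numbers are approximate). Since each group is 1 sample, no count model or test was fitted, and these numbers served for depth and thinning only.

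Levels are mean log2(FPKM + 1), detection is 1 FPKM or more, intervals are exact 95% Clopper-Pearson, and a share of 0 was given the limit of 3 cells. Python 3.11.15, pandas 2.3.3, numpy 2.4.6 and scipy 1.17.1 were used. The calculation of differences was run on resampled virgin luminal cells with known changes, which checks its arithmetic and not the differences reported here. The 8 members and the 8 pathway and 11 marker lists were chosen with earlier results of these data known. Named genes are the members, up to 6 genes of each pathway list by the size of their largest difference, and the 5 genes most like a member by Pearson correlation among genes at 1 FPKM in at least 10% of the cells; Nfia, Nr3c1 (to name every gene of a small count of calls), Il4ra, Ghr, the ligands, RANKL and the genes named as under the threshold or undetected were added after their values were seen. Alternatives covered the pseudocount, scaling, filters, the threshold and the cells included.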

Additional observations from a re-analysis of the deposited data

Results flagged for a closer look

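Cish differed between the gates in opposite directions in the 2 states. The basal minus luminal difference of mean log2(FPKM + 1) was 1.01 in virgin and -1.20 in pregnant glands, 2.21 apart. With 1 sample per group this difference between states was not tested. The virgin difference was under 1, in the same direction, without cells holding markers of the other gate (0.85), without the highest cell of each group (0.95), against virgin luminal cells without Esr1 (0.80) and with a pseudocount of 10 (0.64). The pregnant difference was at -0.99 in cells with at least 2000 genes, -0.89 in the middle range of gene number, -0.49 with a pseudocount of 10 and -0.37 by the ratio of mean FPKM. In virgin glands 32.4% (basal) and 25.9% (luminal) of cells held Cish, with overlapping intervals; in pregnancy the shares were 47.1% and 77.6%, without overlap.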

How the results depend on the processing

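No paired analysis was possible because the replicate numbers in the titles only name single cells and pair none across groups. The 11 called member differences kept their direction in all 128 values under the alternatives tried, and 109 stayed past 1. Those that fell under 1 were, with a pseudocount of 10, Stat5a (-0.53), Cish (0.64) and Socs2 (0.85) in virgin glands, Prlr (-0.57), Stat5a (-0.93) and Cish (-0.49) in pregnant glands, and Jak2 (-0.52) in luminal cells. Other settings took Cish between the virgin gates to 0.85 without cells holding markers of the other gate and to 0.95 without the highest cell of each group (an alternative chosen after seeing the data, as was the thinning to 2 M fragments), Socs2 there to 0.87 and 0.92 in cells with at least 2000 genes and in cells of the middle range (25th to 75th percentile of gene number), Cish between the pregnant gates to -0.99 and -0.89 in the same cells, and Jak2 in luminal cells to -0.98 in the latter. By the ratio of mean FPKM, Stat5a between the virgin gates was at -0.22 and Cish between the pregnant gates at -0.37. Against virgin luminal cells without Esr1, Stat5a (-0.21) and Cish (0.80) of virgin basal cells and Jak2 (-0.31) of pregnant luminal cells also fell under 1.

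Prlr in virgin glands was at -7.12 and -2.70 with pseudocounts of 0.1 and 10 and -2.83 against virgin luminal cells without Esr1; in pregnant glands it was at -3.53 and -0.57 with those pseudocounts, and in luminal cells at -1.03 without the Esr1 cells. Members called between the virgin gates numbered 4, and 7 with a pseudocount of 0.1 or either rescaling to a fixed sum. Both rescalings use a sum above that of most cells, so they act in part like the smaller pseudocount. With a pseudocount of 10 the number was 1, and without the Esr1 cells 2. All genes called higher and lower in basal cells there were 232 and 2785 of 7961, and 311 and 5057 with a pseudocount of 0.1. The rescalings gave 284 and 4059, and 296 and 4215 when the 10 most abundant genes were left out. A pseudocount of 10 gave 97 and 768, and leaving out the Esr1 cells gave 285 and 2313 of 6821. Between the pregnant gates 1 of the 4 was left with a pseudocount of 10, where 235 of 7676 genes were higher and 389 lower. In luminal cells 5 in place of 3 were called by the ratio of mean FPKM, where 965 of 8319 genes were higher and 1117 lower. In basal cells, where none was called, 3 were called with a pseudocount of 0.1, by the ratio of mean FPKM or by either rescaling to a fixed sum. Without cells holding markers of the other gate 2 were called. By median ratio, in cells with at least 2000 genes, in the middle cells by gene number and without endothelial cells, 1 each was called. All genes called higher and lower by median ratio were 1072 and 62 of 6692, and with at least 2000 genes 851 and 316 of 7048. They were 1115 and 699 of 7296 in the middle cells and 1139 and 66 of 6744 without endothelial cells. Between the basal groups Socs3 was at 1.04 without the highest cell of each group. All genes called higher and lower in pregnancy there were 1238 and 43 of 6692. With a pseudocount of 0.1 they were 2557 and 114, and by the ratio of mean FPKM 1929 and 763. The rescalings gave 1858 and 88, and 1920 and 97 when the 10 most abundant genes were left out. Without cells holding markers of the other gate they were 1097 and 62 of 6375.

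The genes called among all tested were 3017 and 2214 between the gates in virgin and pregnant glands, 1021 between luminal and 1281 between basal groups. At a difference of 2 they were 1064, 661, 212 and 306, with a pseudocount of 0.1 they were 5368, 4162, 2421 and 2671, and with a pseudocount of 10 they were 865, 624, 240 and 332. Pathway list genes at a difference of 2 were 17, 15, 17 and 6. The median of all genes between the virgin gates was -0.68, and -1.02 after rescaling to a fixed sum; between luminal groups it was -0.02 and -0.22, which takes Stat5a from 0.26 to -0.02. Depth limits what a 0 means for Socs1 and Stat5b, for which 1 FPKM was 21.4 and 47.5 fragments in the median cell.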
